A study of Mus musculus with 12 samples.

Results

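The 59 genes described here encode receptor tyrosine kinases outside the EGF receptor family, their ligands, and the ephrins with their Eph receptors. They were chosen by symbol from the 47642 genes listed in the table and comprise 34 receptors and 25 ligands. RNA was sequenced from mIMCD3 cells, an immortalized line from the inner medullary collecting duct of mice that carry the early region of SV40 as a transgene. The 3 genotypes compared, with 4 libraries each, were wild-type cells (Wt), cells in which nearly all of Pkd1 was deleted on both alleles with CRISPR (Pkd1-/-), and cells in which TALEN editing removed an internal part of Pkd2 (Pkd2-/-). Each mutant was represented by 1 clone. The libraries of a genotype came from 4 of 6 culture dishes, selected by RNA purity, so that p-values measure the spread between dishes of 1 clone and not the spread between clones. All cells were grown in DMEM-F12 with fetal bovine serum, penicillin and streptomycin and were harvested 4 days after full confluency.

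Receptor tyrosine kinases span the cell membrane, bind a ligand outside the cell and phosphorylate tyrosines inside it, which recruits adaptor proteins and activates the RAS-MAPK and PI3K cascades. Most of their ligands are secreted growth factors, whereas ephrins stay attached to the membrane, so that Eph receptors and ephrins signal in both directions between touching cells and set boundaries between cell groups. In the developing kidney, GDNF from the mesenchyme acts through RET and its co-receptor GFRA1 to drive branching of the ureteric bud, from which the collecting duct arises, and FGFR2 and MET also act in this epithelium.

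The deposited values are normalized counts rounded to whole numbers, with totals of 25966273 to 28027792 per library, and a count of 0 at this depth allows up to 3 counts per library. Pkd1 itself, as a check of the labels, measured 682 to 883 normalized counts in Wt, 30 to 49 in Pkd1-/- and 1057 to 1492 in Pkd2-/-. Pkd2 measured 3438 to 4467, 2545 to 2858 and 3855 to 4135 in the same order, and a gene-level count does not test a deletion of part of the exons. Of 18 collecting duct epithelium markers, 15 passed the filter on low values. Cdh1, Epcam, Krt8, Krt18, Pax2 and Pax8 were high in every library, while 3 of the 18 were at 0 in every library. Among these was Aqp2, the vasopressin-regulated water channel that defines principal cells. Krt19, Gata3, Elf5 and Hsd11b2 differed between genotypes, as given below. The share of mitochondrially encoded genes was 1.36% to 3.61% per library, with overlapping ranges in the 3 genotypes.

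Upstream sequences of 6 members are shown because these members carry the main contrasts: Epha3, Ephb3, Epha5, Pdgfc and Vegfc were higher in Pkd1-/- than in Wt and at 0 in every Pkd2-/- library, and Efnb2 was lower in both mutants. Each sequence covers the 150 bases from 200 to 51 bases before the RefSeq start site (build GRCm38.p6), read 5′ to 3′ on the strand of the gene, with CG dinucleotides in capitals.
Epha3 chr16:63864226-63864375 (-): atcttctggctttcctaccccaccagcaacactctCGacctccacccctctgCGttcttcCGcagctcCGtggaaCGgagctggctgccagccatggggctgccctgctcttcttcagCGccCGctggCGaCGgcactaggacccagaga
Ephb3 chr16:21204595-21204744 (+): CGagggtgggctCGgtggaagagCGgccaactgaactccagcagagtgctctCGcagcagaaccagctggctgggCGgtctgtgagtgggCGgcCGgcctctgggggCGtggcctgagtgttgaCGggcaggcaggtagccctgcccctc
Epha5 chr5:84417433-84417582 (-): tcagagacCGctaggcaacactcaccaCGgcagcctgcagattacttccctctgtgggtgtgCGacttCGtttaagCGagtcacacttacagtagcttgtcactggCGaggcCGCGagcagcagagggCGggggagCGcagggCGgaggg
Pdgfc chr3:81036216-81036365 (+): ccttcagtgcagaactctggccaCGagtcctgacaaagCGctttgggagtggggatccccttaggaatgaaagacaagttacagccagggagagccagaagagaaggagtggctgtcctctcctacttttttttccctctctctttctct
Vegfc chr8:54077332-54077481 (+): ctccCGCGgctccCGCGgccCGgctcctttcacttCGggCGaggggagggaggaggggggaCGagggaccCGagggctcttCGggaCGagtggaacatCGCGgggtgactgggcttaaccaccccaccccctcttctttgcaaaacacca
Efnb2 chr8:8661293-8661442 (-): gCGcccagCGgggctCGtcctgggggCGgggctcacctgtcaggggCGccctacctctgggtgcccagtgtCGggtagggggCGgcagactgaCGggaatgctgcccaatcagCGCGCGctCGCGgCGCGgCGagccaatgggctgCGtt

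Among the 32851 RefSeq promoters of the same length, 84.8% held a CG dinucleotide, and the median was 3 CG. The windows of Epha3 and Ephb3 held 9 CG each, a number that 26.3% of all promoters reached. Epha5 held 11 CG (reached by 20.5%), Vegfc 13 (15.5%), Efnb2 17 (8.0%) and Pdgfc 2 (68.9%). The GC box GGGCGG, searched on both strands, occurred 2 times each in the windows of Epha5, Ephb3 and Efnb2 and did not occur in those of Epha3, Pdgfc and Vegfc, and 22.3% of all promoters held it. Promoters were given for 50 of the 59 members. These 63 promoters held a median of 9 CG, and 37 of them held GGGCGG. The end of the RefSeq sequence given for Vegfc was not found in a GENCODE transcript of the gene, unlike that of the other printed members. Start sites themselves were not compared. These counts describe the letters of the windows only, since no measurement of binding or methylation is part of the data.

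Of the 59 members, 7 had 0 counts in every library: the receptors Fgfr4, Kdr, Kit, Ret and Ntrk2 and the ligands Hgf and Igf1. Another 5 stayed under a mean of 1 normalized count (Pdgfra, Ephb1, Ephb6, Ntrk3 and Gas6). The other 47 were tested together with all 18552 genes of the same minimum mean. To compare levels between genes, normalized counts were divided by the length of the merged exons in kb. By this measure the highest members in Wt were Efna1 at 1657 ± 139 (SD, n = 4), Vegfb at 1590 ± 81.5 and Ddr1 at 1557 ± 128 normalized counts per kb, and the ranges of neighbours in this order overlapped. Efna1 is a membrane-anchored ligand of EphA receptors, Vegfb is a ligand of FLT1, and Ddr1 is a collagen receptor of epithelia. The next members were Ephb4 at 799 ± 48.0 and Efna4 at 778 ± 28.7, which overlapped each other, followed by Met at 554 ± 38.7, which overlapped neither neighbour. Pdgfb at 382 ± 17.3, Epha2 at 339 ± 38.1 and Fgfr2 at 315.5 ± 17.5 formed a further overlapping run.

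**Figure D1:**
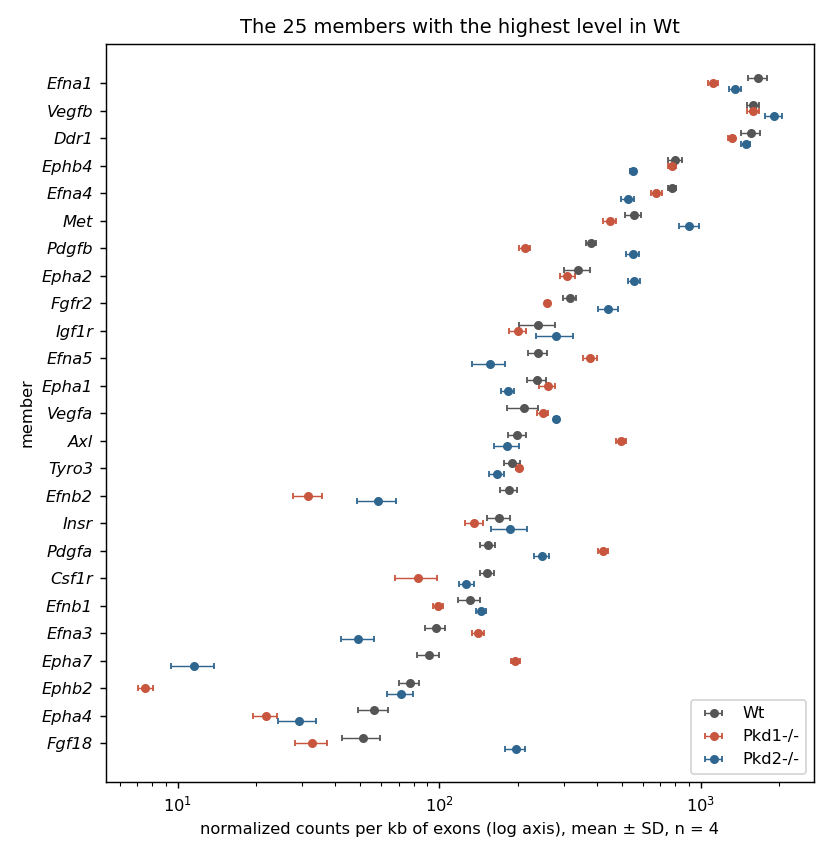
Levels of the 25 members that were highest in Wt, in normalized counts per kb of exons on a log axis, as mean ± SD of 4 libraries for Wt, Pkd1-/- and Pkd2-/-. Efna1, Vegfb and Ddr1 lie above 1000 in all 3 genotypes, while Ephb2, Efnb2, Epha7 and Axl differ visibly between genotypes.

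The order of levels changed with genotype. In Pkd1-/-, Vegfb led at 1589 ± 80.3 per kb and Efna1 followed behind Ddr1 at 1117 ± 47.9, and Axl, Pdgfa and Efna5 entered the first 10 at 498, 424 and 378 normalized counts per kb. In Pkd2-/-, Vegfb led at 1908 ± 142, Met stood next after Ddr1 and Efna1 at 906 ± 81.9, and Epha2 followed at 557 ± 27.5. Receptors and their ligands were not always measured together: Met was among the highest members with Hgf at 0, and Gdnf was measured with Ret at 0.

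The first comparison asked which members differ where Pkd1, the gene of the membrane receptor polycystin-1, is lost. In Pkd1-/- cells, several Eph receptors that were scarce in Wt were higher, together with the growth factors Pdgfa, Pdgfc, Vegfc and Gdnf and the receptor Axl, whereas Ephb2, Efnb2, Epha4 and Fgf9 were reduced. Of these, Epha5, Pdgfc and Vegfc stayed at low levels also in Pkd1-/- (at most 83 normalized counts in any library). Of the 47 tested members, 17 differed from Wt by at least 2-fold (1 on the log2 scale) at an adjusted p-value below 0.05, 12 higher and 5 lower, and genes that met both limits are hereafter called. Over all 18552 genes tested, 6.24% were called, 2.96% higher and 3.28% lower. The 12 higher members were Fgfr1, Fgf21, Pdgfa, Pdgfc, Vegfc, Gdnf, Axl, Ddr2, Epha3, Epha5, Epha7 and Ephb3, and the 5 lower ones Fgf9, Flt1, Epha4, Ephb2 and Efnb2. The filter on low values took the mean over all libraries. Fgfr1 (0 in Wt), Vegfc (Wt mean 0.75) and Epha5 (Wt mean 1.25) passed it only through mutant libraries, where they were high. The count of 12 thus includes members that the filter admitted by their high group. A further 16 members passed the adjusted p-value alone, so that 33 of 47 passed it, against 27.1% of all genes tested, and 14 passed neither. The median log2 fold change of the tested members was -0.01 (0.01 over all genes tested), and the median of its absolute value was 0.62 (0.21 over all genes tested).

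The same question was put for Pkd2, the gene of the ion channel polycystin-2. In Pkd2-/- cells most called members were reduced: Epha3, Ephb3 and Pdgfc fell to 0 in every library, Epha7 fell to 0.127 times its Wt mean, and Fgfr3 and Efnb2 also fell, while Fgf18 rose. Against Wt, 14 members were called, 2 higher (Fgfr1 and Fgf18) and 12 lower (Fgfr3, Pdgfrb, Pdgfc, Flt1, Flt4, Gdnf, Epha3, Epha5, Epha7, Ephb3, Efnb2 and Efnb3). Fgfr1, at 0 in Wt, passed the filter on low values only through the mutant libraries. Among all genes tested, 9.62% were called, 3.24% higher and 6.38% lower. A further 20 members passed the adjusted p-value alone, which made 34 of 47 against 42.3% of all genes tested, and 13 passed neither. Their median log2 fold change was -0.26 (-0.01 over all genes tested), with a median absolute value of 0.59 (0.30 over all genes tested). Of the 12 lower members, Pdgfrb, Flt4, Epha5 and Efnb3 were near the threshold, with limma adjusted p of 0.027, 0.048, 0.0498 and 0.049.

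Compared directly, Pkd2-/- and Pkd1-/- cells differed in 21 members, of which 5 were higher in Pkd2-/- (Fgf9, Fgf18, Met, Pdgfb and Ephb2) and 16 lower. The share of all genes called in this comparison was 11.8%, with 4.53% higher and 7.23% lower. Another 18 members passed the adjusted p-value alone, 39 of 47 in all, against 46.3% of all genes tested. The 2 comparisons with Wt share the Wt libraries. Higher in Pkd1-/- and lower in Pkd2-/- were 6 members: Epha3, Epha5, Epha7, Ephb3, Pdgfc and Gdnf (1.11% of all genes tested were called in opposite directions). Without Epha5, whose call in Pkd2-/- was lost when any of 11 of the 12 libraries was left out (all but Wt replicate 3, adjusted p 0.0579 to 0.134), 5 remained. Called in the same direction were 3 members, Fgfr1 higher and Flt1 and Efnb2 lower (2.08% of all genes tested). Of these, Fgfr1 passed the filter on low values only through the mutant libraries.

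**Figure D2:**
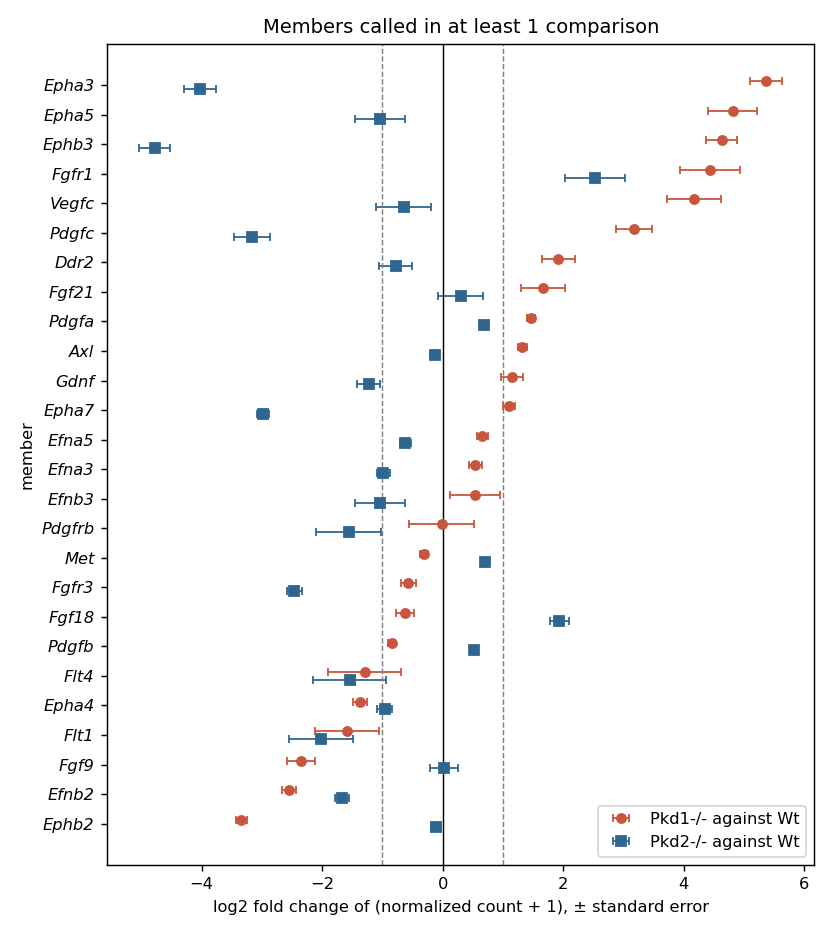
Log2 fold change of (normalized count + 1) against Wt, with its standard error, of the 26 members called in at least 1 of the 3 comparisons, for Pkd1-/- (circles) and Pkd2-/- (squares). Dashed lines mark the fold threshold of 1 on the log2 scale, and Epha3, Ephb3, Pdgfc, Epha7 and Gdnf lie on opposite sides of 0 in the mutants. Values of members with a genotype at 0 in every library depend on the added count.

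Eph receptors, which bind ephrins on neighbouring cells, held large fitted changes in Pkd1-/-, in Epha3, Epha5 and Ephb3, though the order of members that were near 0 in Wt depends on the added count. Epha3 (ENSMUSG00000052504.6, chromosome 16, 63543534 to 63864175) measured 21, 8, 18 and 18 normalized counts in the Wt libraries, 600, 714, 686 and 710 in Pkd1-/- and 0 in all 4 Pkd2-/- libraries. The 3 genotypes did not overlap. Against Wt its log2 fold change in Pkd1-/- was 5.37 ± 0.266 (SE, limma adjusted p = 1.9e-11), 41.7 times the Wt mean, and Pkd2-/- was at least 5.42-fold lower than Wt and at least 226-fold lower than Pkd1-/-, taking the floor of 3 counts per library.

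Ephb3, a B-type receptor on the same chromosome (ENSMUSG00000005958.14, 21204755 to 21223305), measured 21, 45, 30 and 17 in Wt, 671, 719, 639 and 690 in Pkd1-/- and 0 in every Pkd2-/- library. Its pattern thus resembled that of Epha3 without any overlap between genotypes. The log2 fold change in Pkd1-/- was 4.63 ± 0.257 (limma adjusted p = 9.7e-11), and Pkd2-/- was at least 9.42-fold lower than Wt and at least 227-fold lower than Pkd1-/-. The 16 genes within 5 Mb of Epha3 had medians of -0.21 (Pkd1-/-) and 0.15 (Pkd2-/-) on the log2 scale, and the 98 genes around Ephb3 had 0.12 and -0.02.

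Epha5, on chromosome 5, was nearly absent from Wt, with 2, 1, 0 and 2 normalized counts, and measured 39, 63, 58 and 73 in Pkd1-/- and 0 in every Pkd2-/- library. The Pkd1-/- libraries were all above the others. The ratio of Pkd1-/- to Wt was 46.6, with an exact 95% interval of 19.7 to 145 that covers counting error only, and Pkd2-/- was at least 19.4-fold lower than Pkd1-/-. No fold is given for Pkd2-/- against Wt because both groups were at or under the floor. Epha7, unlike these receptors, was well expressed in Wt, with 878, 792, 980 and 954, rising to 1826, 1945, 1989 and 1975 in Pkd1-/- and falling to 98, 119, 98 and 143 in Pkd2-/-. The 3 ranges were separate. On the log2 scale it differed from Wt by 1.11 ± 0.102 in Pkd1-/- and by -2.98 ± 0.102 in Pkd2-/- (limma adjusted p = 1.1e-07 and 4.0e-14).

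Ephb2, which binds B-type ephrins, fell in Pkd1-/- only by its call. Its Wt libraries held 1075, 1006, 919 and 886 normalized counts, the Pkd1-/- libraries 86, 97, 97 and 100 and the Pkd2-/- libraries 1024, 787, 857 and 939. Wt and Pkd2-/- overlapped, and every Pkd1-/- library was far below both, at 0.0978 times the Wt mean. The log2 fold change in Pkd1-/- was -3.34 ± 0.0887 (limma adjusted p = 4.9e-15), in Pkd2-/- it was -0.11 ± 0.0887 (adjusted p = 0.35), and between the mutants 3.23 ± 0.0887 (adjusted p = 1.0e-15). Epha4, a receptor for ephrins of both types, measured 437, 406, 432 and 543 in Wt, 155, 197, 166 and 182 in Pkd1-/- and 216, 258, 189 and 271 in Pkd2-/-. Both mutants were below every Wt library, with log2 fold changes of -1.37 ± 0.121 in Pkd1-/- (adjusted p = 6.1e-08) and -0.96 ± 0.121 in Pkd2-/-, where the adjusted p of 2.8e-06 passed and the fold did not reach the threshold. Without Wt replicate 2, Pkd2-/- replicate 2 or Pkd2-/- replicate 4 the fold reached it (-1.04 to -1.01).

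**Figure D3:**
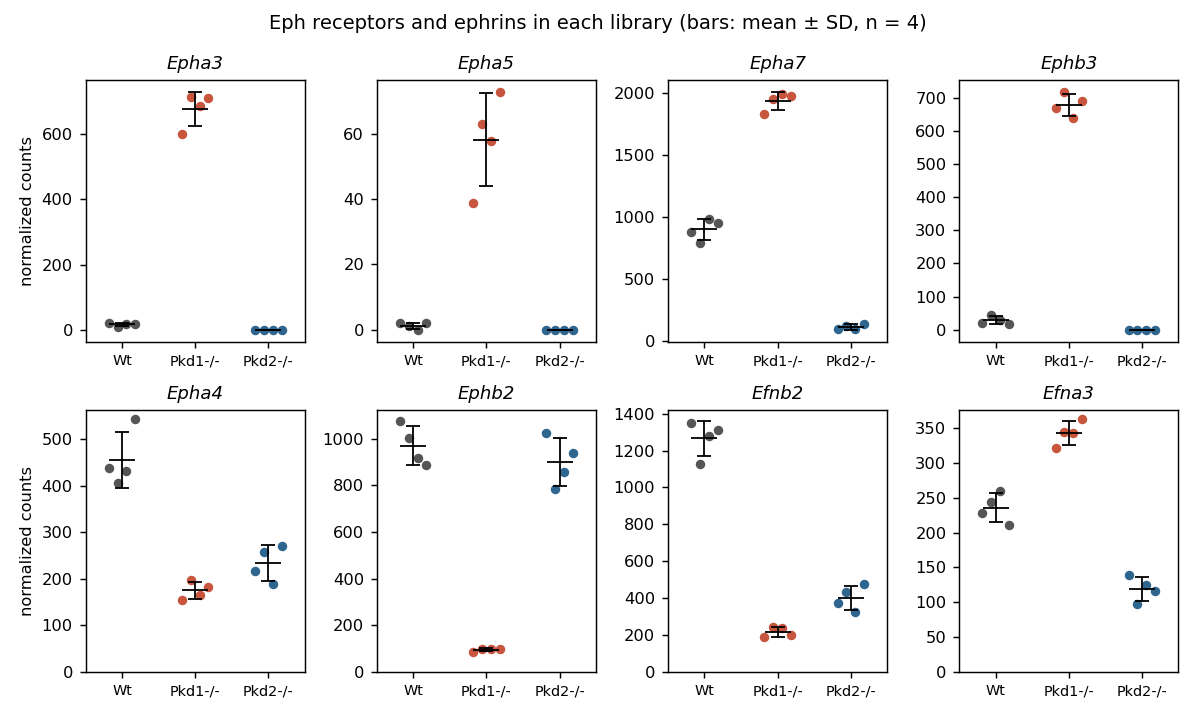
Normalized counts of 6 Eph receptors and 2 ephrins in each of the 12 libraries, with the mean and SD per genotype (n = 4) and a separate vertical axis for each gene. Epha3, Epha5 and Ephb3 are at 0 in all Pkd2-/- libraries and highest in Pkd1-/-, Ephb2 is low only in Pkd1-/-, and Epha4 and Efnb2 are below Wt in both mutants.

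The abundant Eph receptors moved less. Ephb4, a receptor of ephrin-B2, measured 3707.5 ± 223 normalized counts in Wt (SD, n = 4), 3610 ± 118 in Pkd1-/- and 2557 ± 76.2 in Pkd2-/-, where it shifted by -0.53 ± 0.0491 on the log2 scale (limma adjusted p = 5.0e-08). Epha2, a receptor for A-type ephrins in epithelia, measured 1585.5 ± 178, 1444.5 ± 95.5 and 2601.5 ± 128, a shift of 0.72 ± 0.0718 in Pkd2-/- (adjusted p = 1.5e-07) and of -0.13 ± 0.0718 in Pkd1-/- (adjusted p = 0.21). Neither reached the fold threshold. Of the 11 Eph receptors, 9 were tested, and 4 were called higher and 2 lower in Pkd1-/-, against 0 higher and 4 lower in Pkd2-/-. Among all genes tested, 2.96% were called higher and 3.28% lower in Pkd1-/- and 3.24% and 6.38% in Pkd2-/-, so that 0 higher of 9 is near the background. Without the fold threshold, 1 Eph receptor was higher and 7 were lower in Pkd2-/-, a limit that 20.0% and 22.3% of all genes tested met. Epha1, the remaining tested receptor, shares 236 exon bases with the abundant Zyx on the other strand, and how strand was handled in counting is not given in the sources used here.

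Summed per kb, the EphA receptors among the members reached 725 ± 54.2 in Wt, 868 ± 51.3 in Pkd1-/- and 780 ± 34.4 in Pkd2-/-, but their composition differed. Epha2 made up 46.7% ± 2.88 of the EphA sum in Wt, 35.6% ± 0.627 in Pkd1-/- and 71.4% ± 0.601 in Pkd2-/-. Epha7 contributed 12.6%, 22.6% and 1.48% in the same order, and Epha3 0.258%, 8.98% and 0. Among EphB receptors, Ephb4 made up 90.7% ± 1.14 in Wt, 87.6% ± 0.487 in Pkd1-/- and 88.5% ± 0.897 in Pkd2-/-. Ephb2 gave 8.79% in Wt and 11.5% in Pkd2-/- but 0.848% in Pkd1-/-, where Ephb3 gave 11.5%. The sums were not tested.

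**Figure D4:**
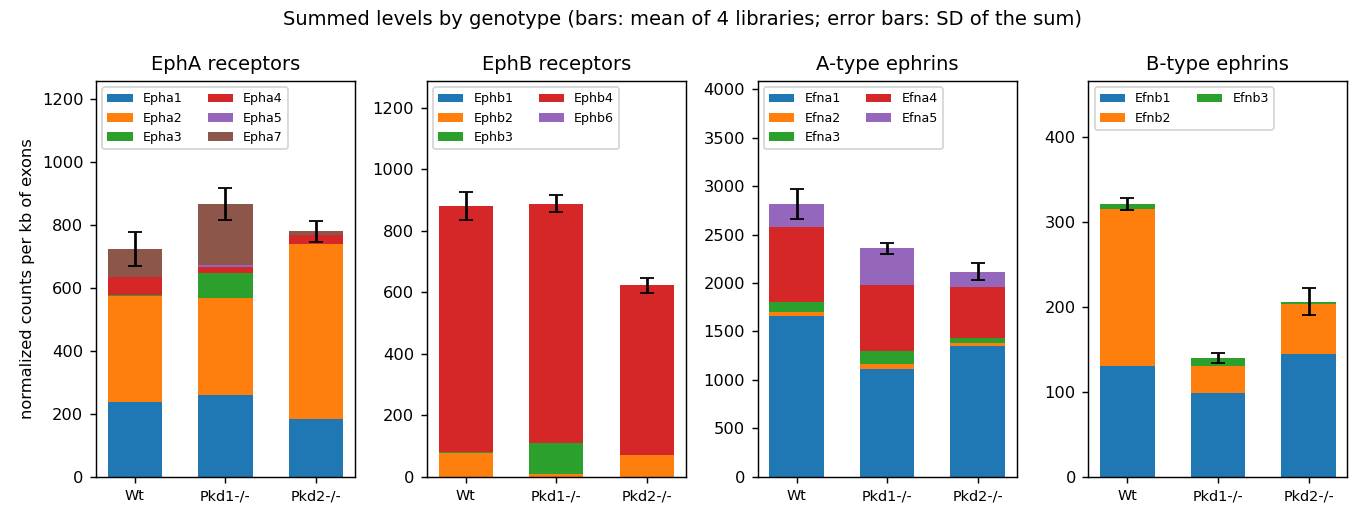
Summed normalized counts per kb of exons for EphA receptors, EphB receptors, A-type ephrins and B-type ephrins in Wt, Pkd1-/- and Pkd2-/-, as stacked means of 4 libraries with the SD of the sum. Epha3 and Epha7 widen the EphA column in Pkd1-/- and nearly vanish in Pkd2-/-, Ephb4 dominates the EphB columns, and the B-type ephrin columns of both mutants are shorter than in Wt, with a smaller Efnb2 segment.

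All 8 ephrins, the ligands of these receptors, were measured, and Efnb2 had the largest changes among them. Efnb2, a transmembrane ephrin that binds EphB receptors and EPHA4 (ENSMUSG00000001300.16, chromosome 8, 8617434 to 8661242), measured 1348, 1129, 1278 and 1309 normalized counts in Wt, 189, 243, 236 and 197 in Pkd1-/- and 372, 433, 323 and 474 in Pkd2-/-. Both mutants lay below Wt, with Pkd1-/- the lower. On the log2 scale it differed from Wt by -2.55 ± 0.11 in Pkd1-/- and by -1.67 ± 0.11 in Pkd2-/- (limma adjusted p = 2.8e-12 and 4.6e-10), and 49 genes within 5 Mb had medians of -0.01 and -0.09. Its share of the B-type ephrins per kb was 57.4% in Wt, 22.5% in Pkd1-/- and 28.2% in Pkd2-/-, and the summed B-type ephrins were 321.5 ± 6.93, 140 ± 5.9 and 206 ± 15.6 per kb.

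Efna3 and Efna5, lipid-anchored A-type ephrins, were both higher in Pkd1-/- and both lower in Pkd2-/- than in Wt, below the fold threshold. Efna5 measured 963.5 ± 80.8 in Wt, 1524 ± 99.4 in Pkd1-/- and 630 ± 90.4 in Pkd2-/-, shifts of 0.66 and -0.62 on the log2 scale (limma adjusted p = 1.5e-05 and 1.6e-05), and the difference of -1.28 ± 0.0898 between the mutants was called. Efna3 measured 236 ± 21.0, 343 ± 16.8 and 119.5 ± 17.2, with -1.52 ± 0.108 between the mutants, and 344 of its exon bases lie opposite the antisense gene Gm15998. Against Wt in Pkd2-/- Efna3 shifted by -0.98, and reached the fold threshold without Wt replicate 4, Pkd2-/- replicate 1 or Pkd2-/- replicate 3 (-1.06 to -1.01). The 4 libraries of each genotype were separate from those of the other genotypes for both ephrins. Efna1, Efna3 and Efna4 lie side by side on chromosome 3 between 89271733 and 89338028. Efna1 shifted by -0.57 ± 0.0594 in Pkd1-/- and -0.29 ± 0.0594 in Pkd2-/-, and Efna4 by -0.20 ± 0.0577 and -0.57 ± 0.0577, all past the adjusted p-value.

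Of the 8 ephrins, 0 were called higher in either mutant, which is near the 2.96% (Pkd1-/-) and 3.24% (Pkd2-/-) of all genes tested. By the adjusted p-value without the fold threshold, 2 were higher and 4 lower in Pkd1-/- (13.6% and 13.5% of all genes tested) and 0 higher and 7 lower in Pkd2-/- (20.0% and 22.3%). Efnb3, the remaining called ephrin, measured 22, 23, 18 and 15 in Wt, 15, 28, 38 and 40 in Pkd1-/- and 19, 3, 8 and 12 in Pkd2-/-. Its genotypes overlapped in every comparison, and the call in Pkd2-/- against Wt (log2 fold change -1.04 ± 0.41, limma adjusted p = 0.049) was lost in 4 other settings and without any 1 of 8 libraries (Wt replicates 1, 2 and 3, Pkd1-/- replicates 2, 3 and 4, and Pkd2-/- replicates 2 and 3), with adjusted p up to 0.196.

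Among the FGF receptors, Fgfr3 fell in Pkd2-/- and Fgfr1 was measured in the mutants only. Fgfr2, the receptor of collecting duct epithelium, made up 88.0% of the FGF receptor sum per kb in Wt, 89.3% in Pkd1-/- and 98.1% in Pkd2-/-. It measured 3258.5 ± 181 normalized counts in Wt, 2678 ± 59.7 in Pkd1-/- and 4575 ± 396 in Pkd2-/-, shifts of -0.28 ± 0.0572 and 0.49 ± 0.0572 on the log2 scale (limma adjusted p = 9.4e-04 and 1.2e-06) that stayed under the fold threshold, and it shares 314 exon bases with Ctbp2. Fgfr3 measured 295, 335, 316 and 282 in Wt, 219, 205, 195 and 208 in Pkd1-/- and 49, 48, 55 and 70 in Pkd2-/-. Wt was highest and Pkd2-/- lowest with no overlap, and the log2 fold change of Pkd2-/- was -2.46 ± 0.121 (adjusted p = 6.8e-12). In Pkd1-/- Fgfr3 shifted by -0.57 ± 0.121, beside a median of -0.34 for the 111 genes within 5 Mb.

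Fgfr1, an FGF receptor best known from mesenchyme, was at 0 in all Wt libraries, at 20, 20, 30 and 15 in Pkd1-/- and at 15, 1, 6 and 4 in Pkd2-/-. The mutants overlapped each other. Taking the floor, Pkd1-/- was at least 7.08-fold and Pkd2-/- at least 2.17-fold higher than Wt (at least 1.22-fold without Pkd2-/- replicate 1), yet Fgfr1 contributed 0.739% and 0.152% of the FGF receptor sum per kb. In bulk RNA, a low level in every cell and a higher level in few cells cannot be told apart, and likewise fewer cells of a type and less RNA per cell.

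Among the FGF ligands, Fgf18 rose in Pkd2-/-. It measured 68, 48, 69 and 57 normalized counts in Wt, 33, 45, 41 and 36 in Pkd1-/- and 223, 263, 229 and 217 in Pkd2-/-. The Pkd2-/- libraries were separate from the rest, at 3.85 times the Wt mean, with a log2 fold change of 1.94 ± 0.152 (limma adjusted p = 5.4e-09). The sum of the 6 FGF ligands among the members was 82.5 ± 12.3 per kb in Wt, 76.8 ± 7.77 in Pkd1-/- and 235 ± 15.7 in Pkd2-/-. It leaves out other FGF ligands and does not stand for all of them. Fgf5, no member, was at 159 ± 4.24 per kb in Wt, 78.9 ± 3.05 in Pkd1-/- and 2.2 ± 1.06 in Pkd2-/-. Fgf9, an epithelial FGF, measured 73, 45, 50 and 78 in Wt, 16, 10, 8 and 11 in Pkd1-/- and 59, 69, 52 and 64 in Pkd2-/-. Wt and Pkd2-/- overlapped, and Pkd1-/- was lower with a log2 fold change of -2.35 ± 0.236 (adjusted p = 3.3e-07). Fgf21, an endocrine FGF, measured 2, 5, 8 and 9 in Wt, 20, 21, 20 and 16 in Pkd1-/- and 10, 5, 7 and 6 in Pkd2-/-. It rose only in Pkd1-/- by its call, by 1.67 ± 0.371 (adjusted p = 0.0021), and the difference between the mutants was -1.37 ± 0.371 (adjusted p = 0.005). Fgf2 and Fgf7 stayed at or below 22 normalized counts in every library and were not called, although Fgf7 was called higher in Pkd2-/- without Wt replicate 3 or Pkd2-/- replicate 2 (adjusted p = 0.0375 and 0.0068).

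The PDGF ligands exchanged rank between the genotypes. Pdgfa measured 500, 475, 500 and 435 normalized counts in Wt, 1390, 1242, 1317 and 1343 in Pkd1-/- and 838, 716, 767 and 767 in Pkd2-/-. The 3 ranges were separate, with both mutants above Wt and log2 fold changes of 1.47 ± 0.0653 in Pkd1-/- (limma adjusted p = 4.2e-12) and 0.69 ± 0.0653 in Pkd2-/- (adjusted p = 7.1e-08). Of its exon bases, 813 (26.1%) lie opposite the antisense gene 6330403L08Rik, whose mean over all libraries was 184 normalized counts. The study counts this antisense gene among those that changed in the same direction in both mutants. Its part in the values of Pdgfa was not tested. Pdgfb measured 1486, 1630, 1592 and 1646 in Wt, 840, 851, 911 and 929 in Pkd1-/- and 2352, 2093, 2297 and 2394 in Pkd2-/-. It was thus lower than Wt in Pkd1-/- and higher in Pkd2-/-, by -0.85 ± 0.0565 and 0.52 ± 0.0565, under the fold threshold in both, while the difference of 1.37 ± 0.0565 between the mutants was called (adjusted p = 3.8e-13).

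Pdgfc, which is activated by cleavage outside the cell, measured 11, 5, 9 and 8 normalized counts in Wt, 81, 83, 78 and 79 in Pkd1-/- and 0 in every Pkd2-/- library. No genotypes overlapped. It was 9.73 times the Wt mean in Pkd1-/- (log2 fold change 3.18 ± 0.304, limma adjusted p = 1.8e-07), and Pkd2-/- was at least 2.75-fold lower than Wt and at least 26.8-fold lower than Pkd1-/-. Of the sum per kb of the 3 PDGF ligands among the members, Pdgfa made up 28.6% in Wt, 65.0% in Pkd1-/- and 31.1% in Pkd2-/-, and Pdgfb 71.1%, 32.5% and 68.9%. This sum leaves out Pdgfd, no member, which was at 104 ± 7.79 per kb in Wt, 4.52 ± 0.654 in Pkd1-/- and 10.9 ± 2.93 in Pkd2-/-. The receptors were nearly absent: Pdgfra had at most 2 normalized counts in any library and Pdgfrb at most 4, and Pdgfrb was 0 in every Pkd2-/- library with both groups near the floor. Its call against Wt was lost without Wt replicate 1, 3 or 4 (adjusted p 0.0507 to 0.0923), and that against Pkd1-/- without Pkd1-/- replicate 1, 2 or 3 (0.05 to 0.0712).

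**Figure D5:**
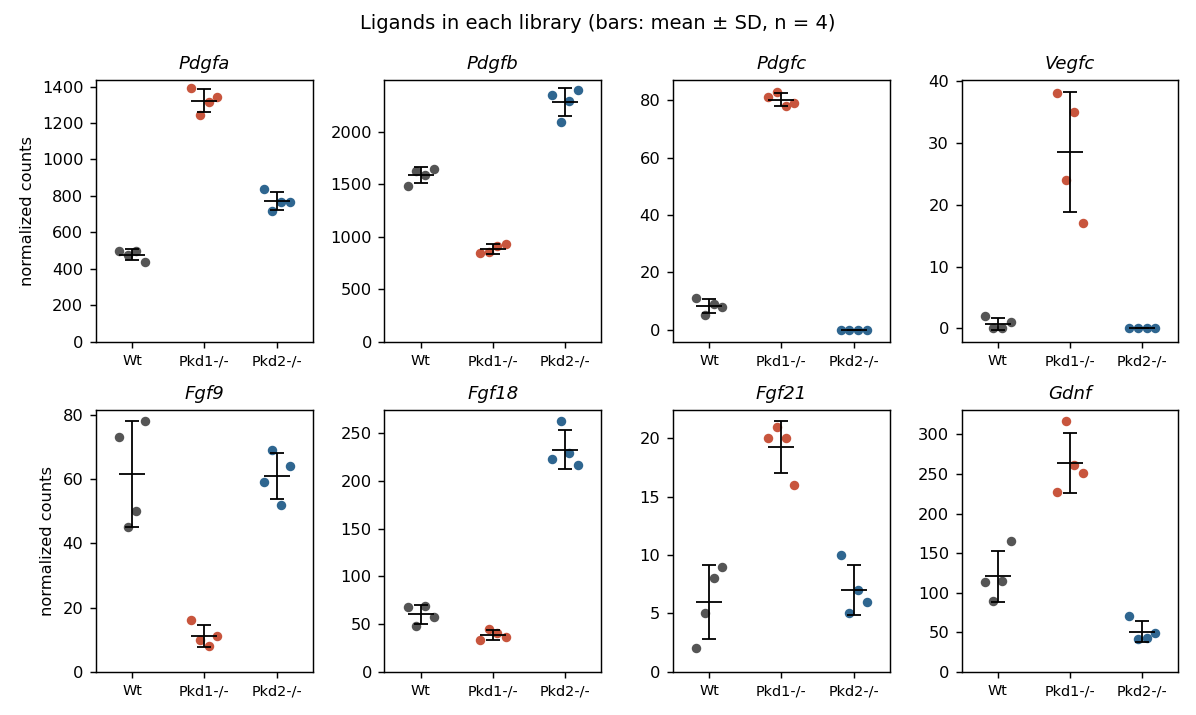
Normalized counts of 8 growth factor genes in each of the 12 libraries, with the mean and SD per genotype (n = 4) and a separate vertical axis for each gene. Pdgfa, Pdgfc, Vegfc, Fgf21 and Gdnf are highest in Pkd1-/-, Pdgfb and Fgf18 in Pkd2-/-, and Fgf9 is low only in Pkd1-/-.

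The 3 VEGF ligands among the members were dominated by Vegfb, which made up 88.3%, 85.9% and 87.1% of their sum per kb in Wt, Pkd1-/- and Pkd2-/-. It shifted by 0.26 ± 0.0582 on the log2 scale in Pkd2-/- (limma adjusted p = 0.0012) and by -0.0011 ± 0.0582 in Pkd1-/- (adjusted p = 0.996). The 212 genes within 5 Mb of Vegfb had medians of 0.25 in Pkd2-/- and 0.19 in Pkd1-/-, so that the shift in Pkd2-/- was not particular to Vegfb. Vegfc, the lymphatic growth factor, measured 2, 0, 0 and 1 in Wt, 38, 24, 35 and 17 in Pkd1-/- and 0 in every Pkd2-/- library. Pkd1-/- stood apart from both, at 38.0 times the Wt mean with an exact 95% interval of 12.7 to 187 for counting error, and at least 9.5-fold above Pkd2-/-. The receptors for these ligands were at the limit of detection: Kdr was at 0, Flt1 measured 8, 2, 9 and 11 in Wt, 1, 1, 1 and 4 in Pkd1-/- and 2, 0, 1 and 1 in Pkd2-/-, and Flt4 did not exceed 8. Flt1 was called lower in both mutants (adjusted p = 0.032 and 0.0044), although both ranges overlapped that of Wt. The call in Pkd1-/- was lost without any 1 of Wt replicates 1, 3 and 4 and Pkd1-/- replicates 1, 2 and 3 (adjusted p 0.0742 to 0.103), and the call of Flt4 in Pkd2-/- was lost without any 1 of 9 libraries (adjusted p 0.0535 to 0.143).

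Gdnf, the ligand of the GFRA1-RET complex, was called in both mutants in opposite directions. Its libraries held 113, 89, 115 and 165 normalized counts in Wt, 227, 317, 262 and 251 in Pkd1-/- and 70, 41, 43 and 49 in Pkd2-/-. The genotypes were separate, with log2 fold changes of 1.15 ± 0.186 and -1.23 ± 0.186 (limma adjusted p = 1.0e-04 and 2.6e-05). Gfra1, its co-receptor and no member, measured 0, 0, 2 and 4 in Wt, 1837, 1941, 1884 and 2043 in Pkd1-/- and 4, 5, 4 and 6 in Pkd2-/-. Ret was at 0 in all 12 libraries.

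Among the TAM receptors, which recognise phosphatidylserine on dying cells through bridging ligands, Axl rose in Pkd1-/-. It measured 919, 961, 1035 and 1090 normalized counts in Wt, 2337, 2558, 2550 and 2572 in Pkd1-/- and 921, 1009, 777 and 959 in Pkd2-/-. Wt and Pkd2-/- overlapped, and Pkd1-/- was 2.5 times the Wt mean (log2 fold change 1.32 ± 0.0739, limma adjusted p = 1.1e-10). Tyro3 and Mertk shifted by less than the fold threshold in both mutants, and the TAM sum per kb was 408 ± 23.9 in Wt, 727 ± 27.0 in Pkd1-/- and 375 ± 13.5 in Pkd2-/-. Of their ligands, Gas6 had at most 1 normalized count in any library. Pros1 (protein S), the other ligand and no member, measured 543, 542, 513 and 575 in Wt, 1228, 1320, 1329 and 1281 in Pkd1-/- and 201, 177, 191 and 212 in Pkd2-/-. It was called higher in Pkd1-/- and lower in Pkd2-/-, with log2 fold changes of 1.25 ± 0.069 and -1.47 ± 0.069 (limma adjusted p = 9.7e-11 and 3.5e-12).

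The collagen receptors Ddr1 and Ddr2 differed in level and in change. Ddr1 measured 7433 ± 609 normalized counts in Wt, 6273 ± 179 in Pkd1-/- and 7102 ± 279 in Pkd2-/-, a shift of -0.24 ± 0.0544 on the log2 scale in Pkd1-/- (limma adjusted p = 0.0023). Ddr2, usually found in connective tissue cells, measured 18, 14, 9 and 12 in Wt, 51, 66, 43 and 48 in Pkd1-/- and 8, 7, 9 and 5 in Pkd2-/-. Pkd1-/- was above all other libraries, with a log2 fold change of 1.92 ± 0.273 (adjusted p = 2.5e-05), and Ddr2 nonetheless made up 0.425% of the sum of both collagen receptors per kb there.

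Met, the receptor of hepatocyte growth factor, measured 4238, 3889, 4287 and 4615 normalized counts in Wt, 3170, 3536, 3425 and 3664 in Pkd1-/- and 6773, 7285, 6163 and 7602 in Pkd2-/-. The 3 genotypes were separate. The shifts of -0.30 ± 0.0657 in Pkd1-/- and 0.71 ± 0.0657 in Pkd2-/- (limma adjusted p = 0.0017 and 5.9e-08) stayed under the fold threshold, and the difference of 1.01 ± 0.0657 between the mutants just reached it and fell under it without Pkd1-/- replicate 1, Pkd2-/- replicate 2 or Pkd2-/- replicate 4 (0.97 to 0.99). Igf1r measured 4022 ± 629, 3352 ± 243 and 4699 ± 759 and was not past the adjusted p-value in either mutant against Wt (0.084 and 0.0995). Mst1r, the other receptor of the MET family, held at most 6 normalized counts in any library.

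Not called in any of the 3 comparisons were 21 tested members: Fgfr2, Fgf1, Fgf2, Fgf7, Mst1r, Igf1r, Insr, Vegfa, Vegfb, Csf1r, Kitl, Mertk, Tyro3, Ddr1, Epha1, Epha2, Ephb4, Efna1, Efna2, Efna4 and Efnb1. Fgf1, an FGF that binds all FGF receptors, shifted by 0.97 ± 0.157 in Pkd1-/- and reached the fold threshold without Wt replicate 1, 3 or 4 or Pkd1-/- replicate 1 or 4 (1.00 to 1.03). Csf1r, a receptor best known from macrophages, measured 880.5 ± 55.6 normalized counts in Wt, 479 ± 87.7 in Pkd1-/- and 734 ± 49.0 in Pkd2-/-, and is named after its values were seen. It shares 873 exon bases (15.1%) with Hmgxb3 on the other strand, whose mean was 969.

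Beyond the members, 129 genes of the same pathways were examined in 5 lists, to be read against the shares called over all genes tested, 2.96% higher and 3.28% lower in Pkd1-/- and 3.24% higher and 6.38% lower in Pkd2-/-. Of 19 other receptor tyrosine kinases, 8 were tested, and 2 were called higher and 1 lower in Pkd1-/- against 1 and 1 in Pkd2-/-. Epha6, a further EphA receptor, measured 2, 0, 0 and 0 normalized counts in Wt, 69, 70, 101 and 88 in Pkd1-/- and 0 in every Pkd2-/- library. Like Epha3 and Epha5 it was thus measured almost solely in Pkd1-/-, and Epha6 passed the filter on low values only through those libraries. Of 27 other ligands, 21 were tested, with 4 higher and 3 lower in Pkd1-/- and 3 higher and 8 lower in Pkd2-/-. Angpt1, a ligand of TEK, measured 783.5 ± 60.5 in Wt, 3492.5 ± 142 in Pkd1-/- and 67.8 ± 24.0 in Pkd2-/-. Pdgfd measured 327 ± 24.6, 14.2 ± 2.06 and 34.5 ± 9.26, Fgf5 398 ± 10.6, 197 ± 7.63 and 5.5 ± 2.65, and Igf2 14.5 ± 6.03, 74.0 ± 27.2 and 0.5 ± 0.577.

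Of 24 co-receptors and ligand-binding proteins, 20 were tested, with 3 higher and 0 lower in Pkd1-/- and 5 higher and 2 lower in Pkd2-/-. Besides Gfra1, Igfbp2 fell in Pkd2-/- to 1.0 ± 0.816 normalized counts from 130.5 ± 28.6 in Wt, Fgfbp1, a carrier that releases FGFs from the matrix, fell to 94.8 ± 12.3 from 815 ± 89.0, and Igfbp7 rose to 2129 ± 166 from 662 ± 64.1. Of 34 adaptors and members of the RAS-MAPK cascade, 32 were tested, and 1 was higher and 1 lower in Pkd1-/- and 0 higher and 3 lower in Pkd2-/-, close to the shares over all genes tested. Without Wt replicate 1, Wt replicate 4 or Pkd2-/- replicate 4, 1 was lower in Pkd2-/-, and without Wt replicate 2 or 3 or Pkd1-/- replicate 2, 3 or 4, 0 were higher in Pkd1-/-. Plcg2, a phospholipase C called lower in both mutants, measured 130 ± 14.5 in Wt, 42.2 ± 12.7 in Pkd1-/- and 51.0 ± 10.4 in Pkd2-/-.

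Of 24 feedback regulators and ERK target genes found in the table, 23 were tested, with 3 higher and 1 lower in Pkd1-/- and 6 higher and 0 lower in Pkd2-/-. The median log2 difference from Wt was 0.29 for Pkd1-/- and 0.61 for Pkd2-/-, against 0.01 and -0.01 over all genes tested. Dusp5, an ERK phosphatase induced by ERK, measured 202, 276, 409 and 606 normalized counts in Wt and 1139, 1408, 1470 and 3744 in Pkd2-/-, so that a single library, replicate 4, lay far above the rest. That library was the highest of its genotype in 20 of the 23 tested genes of the list. Without it, 4 genes were called higher in Pkd2-/- with a median of 0.57, and without Wt replicate 1, 3 were called with a median of 0.62. Ptprj measured 785 ± 110 in Wt and 2497 ± 250 in Pkd2-/-, Etv5 28.5 ± 4.36 in Wt, 81.0 ± 22.8 in Pkd1-/- and 59.2 ± 5.25 in Pkd2-/-, and Etv4 rose in Pkd1-/- to 19.2 ± 5.19 from 5.25 ± 2.22.

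The 8 endothelial markers, of which 2 passed the filter on low values, summed to 8 to 15 normalized counts in Wt, 11 to 23 in Pkd1-/- and 8 to 14 in Pkd2-/-, with Cdh5, Tie1 and Erg at 0 in every library and 0 of the 2 tested called. The 8 fibroblast and pericyte markers summed to 139 to 173, 151 to 227 and 37 to 163, with Lum, Rgs5 and Cspg4 at or near 0, Col3a1 called higher in Pkd1-/- (66.2 ± 3.4 against 4.75 ± 2.06) and Acta2 called lower in Pkd2-/- (21.0 ± 1.83 against 119.5 ± 15.9). The 8 immune cell markers, of which 4 were tested, summed to 896 to 1003 in Wt, 440 to 660 in Pkd1-/- and 734 to 830 in Pkd2-/-. Most of this sum was the member Csf1r, and the other 7 summed to 62 to 74, 58 to 73 and 56 to 71, with Adgre1, Itgam and Cd3e at 0 in every library. Ptprc, at most 5 normalized counts, was called lower in Pkd1-/-, and this call was lost without any 1 of 8 libraries. Of the 15 tested collecting duct markers, 1 was called higher (Elf5) and 2 lower (Krt19 and Gata3) in Pkd1-/-, against 2.96% and 3.28% of all genes tested. In Pkd2-/-, 0 were called higher and 1 lower (Krt19), against 3.24% and 6.38%. Gata3 fell in Pkd1-/- to 48.5 ± 5.74 from 227 ± 34.3 and measured 354 ± 58.4 in Pkd2-/-. Between the mutants, Gata3 was called higher and Elf5 and Hsd11b2 lower in Pkd2-/-, against 4.53% and 7.23% of all genes tested. Their part in the results above was not tested.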

How the data were processed

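Per the labels and the study's methods, reads were trimmed with Trim Galore, aligned to mm10 (GRCm38) with HISAT2 and counted per gene with HTSeq, and the counts were divided by DESeq2 size factors. The authors deposited these normalized counts rounded to whole numbers, recorded here as a score, since read counts could not be recovered from them. The design foresaw this unit, so limma and no count model was used. How strand was handled is not given in the sources used here. No sample column was left unused (0).

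Symbols, positions and merged exon lengths came from GENCODE M21 (47223 identifiers matched, 419 did not), and upstream sequences from RefSeq (GRCm38.p6). Log2(normalized count + 1) of 18552 genes (mean normalized count 1 or more) was fitted in 1 model of all 12 libraries with limma 3.58.1 (lmFit, eBayes with trend) in R 4.3.3. Two-sided p-values were corrected with the Benjamini-Hochberg procedure over all genes tested in a comparison, and the limits for a call were an adjusted p-value of 0.05 and a change of 1 on the log2 scale. A two-sided exact permutation test of 4 against 4 libraries cannot give p below 0.0286, which every member with separate groups reached. Over the 47 tested members, medians of genes within 5 Mb (mean of at least 10) ranged from -0.34 to 0.29 in Pkd1-/-. They ranged from -0.31 to 0.39 in Pkd2-/- and from -0.41 to 0.41 between the mutants. Besides Vegfb, medians were near the member's own change for Kitl in Pkd1-/- (0.26 beside 0.30) and Mertk in Pkd2-/- (0.38 beside 0.50). Between the mutants this held for Ephb4 (-0.41 beside -0.50). Where a group was at 0, folds are bounds against 3 counts per library. Ratios over few counts have exact Clopper-Pearson intervals (95%), and neither bounds nor intervals cover more than counting error, because PCR copies of a molecule are not told apart. Tables were made with Python 3.11.15, numpy 2.4.6, pandas 2.3.3, scipy 1.17.1 and matplotlib 3.10.9.

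Replicate numbers in the titles were not used to pair the samples in the main fit. Of 12 same-number pairs, 2 had a correlation of deviations over 0.1 (range -0.0726 to 0.20, 13703 genes). Both were pairs of replicate 4, Wt with Pkd2-/- (0.20) and Pkd1-/- with Pkd2-/- (0.167), and Wt with Pkd1-/- had 0.0878. Replicate 4 also had the highest mitochondrial share in Wt (3.61%), Pkd1-/- (2.46%) and Pkd2-/- (2.84%). An effect shared by these libraries was not tested. In simulated data for Pkd1-/- against Wt (17860 genes), the test called 86.6% of 97 genes changed 4-fold and 41.3% of 92 changed 2-fold, and 3 unchanged genes. The simulation gave every gene the same dispersion and held no outlying library, so these shares need not hold for noisier genes. A true change of 2-fold lies at the fold threshold itself.

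Members and lists were chosen with earlier results of these data known. Called members are given in full, members past the adjusted p-value alone where they are among the 10 highest in Wt, and of each list at most 4 called genes with a mean of at least 10. Alternatives were other pseudocounts, filters, a replicate block, models of the genotypes compared only, upper-quartile rescaling, no fold threshold and each library left out. The mitochondrial share as a covariate was added after seeing the data.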

Additional observations from a re-analysis of the deposited data

Results flagged for a closer look

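In 3 of 112 groups of 4 libraries, 1 library lay far from the others, with a gap to the nearest value, as a share of the range of the group, above Dixon's 95% critical value. Chance gives about 1 such group in 20. These were Fgf1 in Wt, where 1 library measured 41 normalized counts and the others 57 to 60 (0.842), Vegfb in Wt, where 1 measured 2357 and the others 2601 to 2631 (0.891), and Axl in Pkd1-/-, where 1 measured 2337 and the others 2550 to 2572 (0.906).

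By limma's adjusted p for Pkd2-/- against Pkd1-/-, the differences from Wt were unequal in the mutant clones for 39 of 47 tested members (46.3% of all genes tested). This is the test of the difference itself because both mutants are compared with the same Wt libraries. With the fold threshold, 21 members were called (11.8% of all genes tested), and these are listed here. Clone and genotype cannot be told apart. Among Eph receptors the log2 differences were -9.40 for Epha3, -9.41 for Ephb3, -5.85 for Epha5, -4.08 for Epha7 and 3.23 for Ephb2, and among ephrins -1.52 for Efna3, -1.28 for Efna5 and -1.58 for Efnb3. Among other receptors they were -1.90 for Fgfr1, -1.89 for Fgfr3, 1.01 for Met, -1.54 for Pdgfrb, -1.45 for Axl and -2.69 for Ddr2. Among the remaining ligands they were 2.37 for Fgf9, 2.56 for Fgf18, -1.37 for Fgf21, 1.37 for Pdgfb, -6.34 for Pdgfc, -4.82 for Vegfc and -2.38 for Gdnf. Differences of members at 0 in every Pkd2-/- library depend on the added count, and bounds stand beside the values above except for Pdgfrb, which was near the floor.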

How the results depend on the processing

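No member called or past the adjusted p-value, with all libraries or under an alternative, had the opposite sign in the other fit (0 reversals). The sign changed under an alternative in 9 of 141 combinations of member and comparison, all with an adjusted p of at least 0.569 (Pdgfrb and Vegfb in Pkd1-/-, Fgf2, Fgf9, Fgf21 and Mst1r in Pkd2-/-, and Fgf7, Flt4 and Mertk between the mutants). Outside of the omission of single libraries, 1081 member results kept their side of the threshold, 21 lost a call and 2 gained one, and with 1 library left out 1636 kept it, 43 lost it and 13 gained it. With single libraries left out, members called against Wt numbered 12 to 13 higher and 4 to 5 lower in Pkd1-/- and 2 to 3 higher and 8 to 11 lower in Pkd2-/-, and Pkd2-/- against Pkd1-/- gave 4 to 5 higher and 15 to 16 lower, 5 to 6 opposite and 2 to 4 in the same direction in the mutants. Pathway genes called ranged over 16 to 21, 24 to 31 and 28 to 31 in the 3 comparisons. With all libraries, 6.24%, 9.62% and 11.8% of all genes tested were called in the same order. A minimum mean of 10 left 1 member higher in Pkd2-/- and 1 in the same direction in both mutants, since Fgfr1 and Flt1 were not tested. Without a fold threshold, by construction more genes were called. In Pkd1-/-, 17 members were higher and 16 lower (13.6% and 13.5% of all genes tested), and in Pkd2-/- 11 and 23 (20.0% and 22.3%). Between the mutants, 16 were higher and 23 lower in Pkd2-/- (21.9% and 24.3%). The mutants shared 12 members in the same and 13 in opposite directions, and the shares of all genes tested that did so were not computed. Of the 129 pathway genes, not all of them tested, 47, 69 and 71 were called in the 3 comparisons. Over all genes tested, 27.1%, 42.3% and 46.3% were called in the same order. The replicate block gave 12 higher and 5 lower members in Pkd1-/-, 2 and 10 in Pkd2-/-, 5 and 16 between the mutants, 5 opposite and 3 the same, and 19, 29 and 30 pathway genes, with Flt4 and Epha5 in Pkd2-/- no longer called. Members under about 3 normalized counts were beyond the depth.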
